A study of Mus musculus with 6 samples.

Results

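The genes described here encode the proteasome and its regulators, measured in bone cells sorted as osteal macrophages (Omacs), the macrophages that line bone surfaces. The markers bear out that label only in part. Cd68 and Itgam (CD11b) were present, while Adgre1 (F4/80) lay under the level at which genes were tested and Csf1r was listed at 0. Such values can miss transcripts that were not listed. Neutrophil markers, led by S100a8 and S100a9, also summed higher than macrophage markers in every library. Sums over different genes do not give shares of cells, so the values are described as those of the sorted population. The proteasome genes were taken by name: a gene belonged if its symbol began with Psma, Psmb, Psmc, Psmd, Psme, Psmf or Psmg followed by a digit. Of 11815 genes in the table, 46 did, and 45 of them reached the mean of 1 scaled TPM (a unit explained below) at which genes were tested. Omacs were sorted from the femurs and vertebrae of female BALB/c mice with antibodies to CD11b, F4/80 and CD68, 4 weeks after bilateral ovariectomy (OVX, 3 libraries) or a sham operation (sham, 3 libraries). The mice were 10 weeks old at surgery and received no further treatment. Ovariectomy removes the main source of estrogen and serves as a model of the postmenopausal state in mice. Cells of each group came from many mice, and neither the labels nor the methods say how these were divided among the 3 libraries. P-values therefore measure only the spread between these libraries, which may be technical.

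The 26S proteasome breaks down proteins that carry a chain of ubiquitin. Its 20S core is a barrel of stacked rings, with alpha subunits (Psma) that form the gate and beta subunits (Psmb) that enclose the cutting sites. The beta subunits that cut are Psmb6, Psmb7 and Psmb5. Interferon induces a catalytic replacement for each of them, namely Psmb9, Psmb10 and Psmb8, which form the immunoproteasome and favour peptides for display on MHC class I. The 19S particle caps the core, where its ATPases (Psmc) unfold the substrate and its non-ATPase subunits (Psmd) bind and remove ubiquitin. Other activators (Psme) open the gate without ubiquitin, Psmf1 inhibits the core, and dedicated chaperones (Psmg for the core; Psmd5, Psmd9 and Psmd10 for the 19S base) assist assembly. In macrophages the proteasome also degrades the inhibitor that holds NF-κB in the cytoplasm.

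The mouse annotation (GENCODE M21 on GRCm38, mm10) holds 54 genes with such names, 8 of which were not analysed here: Psmb8, Psmb9, Psmb11, Psme2b and 4 pseudogenes. Of the immunoproteasome, only Psmb10 could therefore be measured. Psma8, an alpha subunit known from testis, was listed at 0 in all libraries except OVX replicate 1, at 0.15, and was not tested. Psmc3ip fits the name rule but is no proteasome subunit: its product assists DNA strand exchange in meiotic recombination. The remaining 44 tested genes comprised 7 alpha and 7 beta subunits of the core, Psmb10, 6 ATPases and 11 non-ATPases of the 19S particle, 4 activators, the inhibitor Psmf1 and 7 assembly chaperones.

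Proteasome genes are known targets of NRF1 (Nfe2l1), which binds antioxidant response elements when proteasome activity falls, and some are targets of interferon regulatory factors. RefSeq promoter windows on GRCm38.p6, from 250 bases before to 50 after a start site, were at hand for 38 of the 46 genes (41 windows). The antioxidant element was searched on both strands as TGACNNNGC and the interferon element as GAAANNGAAA. The former occurred in 6 of the 41 windows (14.6%) and in 12.4% of all 32851 windows, in Psmb5, Psmb6, Psmc6, Psmd9, Psmd12 and Psme4. The latter occurred in 5 windows (12.2%) and in 3.44% of all windows, in Psmb3, Psmd4, Psmd9, Psme1 and Psmg4. A match is a description of letters and not a measured binding site. The windows below belong to catalytic subunits and to genes whose values are given in full further on, with the element in capitals, 5′ to 3′ on the strand of the gene. They lie at chr14:54618023-54618052 (Psmb5, minus strand), chr11:70525338-70525367 (Psmb6, plus), chr11:97703261-97703290 (Psmb3, plus), chr14:55578493-55578522 (Psme1, plus) and chr13:34162969-34162998 (Psmg4, plus).
Psmb5, antioxidant element: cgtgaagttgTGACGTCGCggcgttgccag
Psmb6, antioxidant element: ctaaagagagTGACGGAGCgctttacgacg
Psmb3, interferon element on the opposite strand: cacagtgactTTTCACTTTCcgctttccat
Psme1, interferon element on the opposite strand: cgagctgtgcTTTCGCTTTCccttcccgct
Psmg4, interferon element: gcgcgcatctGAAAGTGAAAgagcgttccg
The first base of the element lay 47 bases before the start site in Psmb5, 9 before in Psmb6, 163 before in Psmb3, 9 after in Psme1 and 15 after in Psmg4. In Psme1 and Psmg4 it therefore lay just inside the transcribed region.

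The values are TPM, which express how much of the RNA in a library a transcript makes up after correction for its length, summed over the listed transcripts of a gene and scaled between libraries. The listed transcripts covered between 80.5% and 82.97% of the full TPM scale in 5 libraries and 66.3% in OVX replicate 3, which stood apart. Where 3 values are given for a group, they are those of replicates 1, 2 and 3. The read depth behind a TPM cannot be read from the table. Cd68 (32.3 to 43.0 scaled TPM over the 6 libraries) and Itgam, which encodes CD11b (10.8 to 28.6), were present, Adgre1, which encodes F4/80, was at 0.467 to 1.15, and Csf1r was listed at 0. Neutrophil markers, of which 9 of 13 were in the table, summed to between 69774 and 88875 scaled TPM across sham libraries and between 133497 and 141065 in OVX, led by S100a8 and S100a9. Macrophage and sort markers, 8 of 13 in the table, summed to between 1239 and 1327 in sham and between 1319 and 1674 in OVX. Stromal and osteoblast markers (11 of 12) summed to between 13944 and 14754 in sham, to 13665 and 13138 in OVX replicates 1 and 2 and to 9763 in OVX replicate 3. Chondrocyte markers (10 of 10) summed to between 808 and 1407 and muscle markers (8 of 8) to between 145 and 233 over all libraries, and none of the B cell, T cell and erythroid markers looked for was in the table. The part of these other cells in the proteasome values was not tested. In bulk RNA, fewer cells of a type and less RNA per cell cannot be told apart.

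Proteasome genes were abundant in the RNA of the sorted population, with the core far above the cap. The 45 tested genes had a median level of 91.3 scaled TPM, against 6.33 for all 8185 tested genes. The core subunits ranged from 64.5 (Psmb7) to 500.1 (Psma3), with a median of 221, and 12 of the 14 lay above every 19S subunit. The 19S subunits ranged from 22.9 to 148, with a median of 74.5. The most abundant gene of each set was Psma3 among alpha subunits, Psmb3 among beta subunits, Psmc5 among ATPases, Psmd7 among non-ATPases, Psme2 among activators and Psmg4 among chaperones. Psma3, Psmb3 (498) and Psma7 (499) differed by less than the spread over libraries, as did Psmd7 and the lid subunit Psmd8. The Psma3 sum includes noncoding transcripts: its main coding transcript alone was at 232 to 326 over the 6 libraries, against 438 to 659.8 for the only listed transcript of Psma7.

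**Figure D1:**
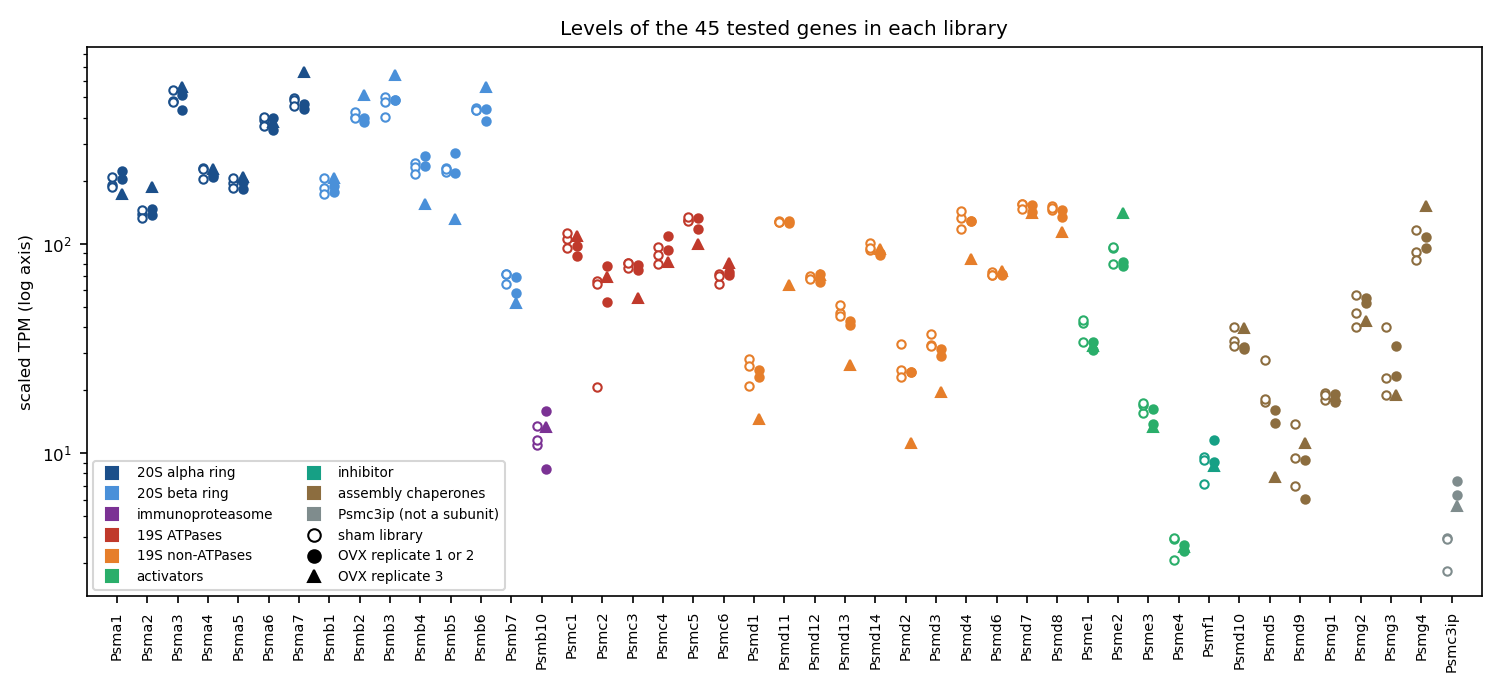
Levels of the 45 tested genes in scaled TPM on a log axis, grouped by role. Open circles are the 3 sham libraries, filled circles OVX replicates 1 and 2, triangles OVX replicate 3. Core subunits sit mostly above the 19S subunits, and sham and OVX points overlap for most genes.

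The comparison of OVX with sham asked whether loss of the ovaries changes the RNA levels of the proteasome in the sorted population. No proteasome gene passed the test. By limma, with Benjamini-Hochberg adjustment over all 8185 genes, 0 of the 45 were called at an adjusted p of 0.05 in either direction, where 0.0122% of all tested genes were called higher and 0% lower. The lowest adjusted p among them was 0.552, for Psmc3ip, which is no proteasome subunit, and the next was 0.701, for Psmd5. At an unadjusted p of 0.05, 2 of the 45 passed (Psmd5 and Psmc3ip, 4.44%), against 7% of all genes.

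The fold changes were small. Of the 45 genes, 20 had a log2 fold change above 0, against 49.1% of all genes, and their median was -0.03, against -0.01 for all genes. The OVX libraries lay wholly above the sham libraries for 1 gene, Psmc3ip (2.22%, against 7.54% of all genes). They lay wholly below for 5, namely Psmd5, Psmd13, Psmd3, Psmd8 and Psme1 (11.1%, against 7.6% of all genes). The median SE of a fold change was 0.16 on the log2 scale. Without OVX replicate 3, 0 of the 45 and 12 of all genes were called, and 14 of the 45 fold changes lay above 0, against 49.2% of all genes.

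**Figure D2:**
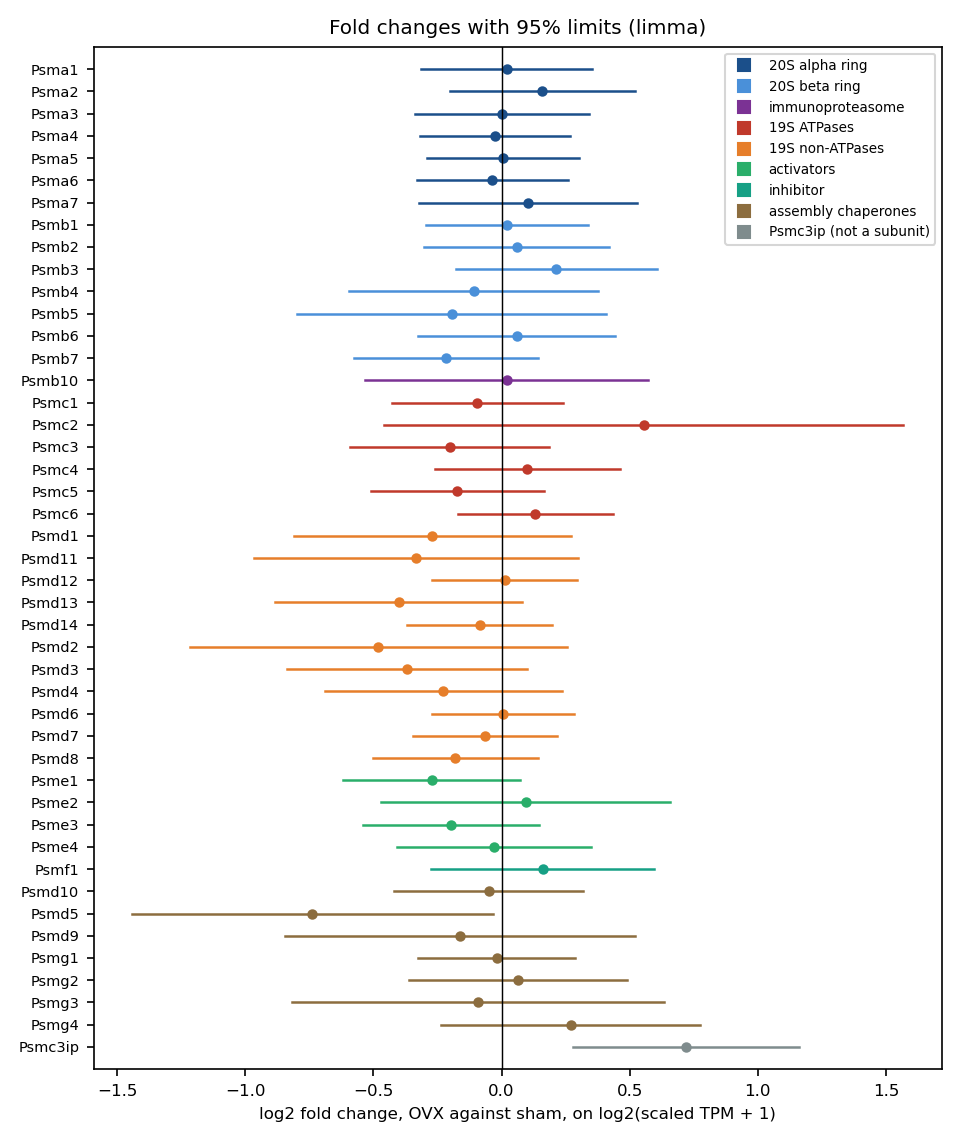
Log2 fold change of each tested gene, OVX against sham, on log2(scaled TPM + 1), with 95% limits from limma (n = 3 libraries a group). The limits span 0 for all genes except Psmd5 and Psmc3ip, which did not pass the test after adjustment over all genes.

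The sums of the 20S core overlapped between the groups. Its 14 subunits summed to 4187, 4279 and 3918 scaled TPM across sham libraries and to 4246, 3903 and 4645 in OVX, so OVX sums lay within, below and above the sham range. The OVX to sham ratio of the means was 1.03, but it was 0.918 on the TPM as deposited, where all genes shifted to a median of -0.15, 0.980 with equal listed totals and 0.988 without OVX replicate 3. Of the 14, 9 had a fold change above 0 and 5 below, with a median of 0.01, a range of -0.22 to 0.21 and limits within -0.80 and 0.61. The lowest adjusted p was 0.773 (limma). For 0 subunits the groups did not overlap, against 7.54% of all genes wholly higher in OVX and 7.6% wholly lower.

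The log2 fold changes of the alpha subunits ran from -0.04 (Psma6) to 0.16 (Psma2), and the alpha sum was 2111 ± 106 scaled TPM across sham libraries and 2166 ± 217 in the OVX libraries (SD, n = 3). Psma3, with the highest mean, was at 481, 539 and 476 across sham libraries and at 509.7, 436 and 558 in OVX. The groups overlapped and the log2 fold change was 0.00 (SE 0.15). Psma7, another alpha subunit, was at 495, 484 and 453 across sham libraries and at 465, 438 and 659.8 in OVX, so that OVX replicate 3 alone exceeded the sham range.

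For each of the 3 catalytic beta subunits the groups overlapped. Psmb6, the caspase-like site, was at 443, 436 and 433 scaled TPM across sham libraries and at 438, 386 and 560.2 in OVX (log2 fold change 0.06, SE 0.16, and -0.09 without OVX replicate 3). Sham libraries lay close together, while OVX replicates lay on both sides of them. Psmb5, the chymotrypsin-like site that bortezomib inhibits, was at 220.2, 231 and 227 across sham libraries and at 270.3, 217 and 131 in OVX. Its OVX values spread more widely than its sham values (SD 70.3 against 5.41), and its log2 fold change of -0.20 (SE 0.26) became 0.10 without OVX replicate 3. Psmb7, the trypsin-like site, was the scarcest core subunit, at 71.8, 63.9 and 72.0 across sham libraries and at 58.0, 69.3 and 51.9 in OVX. Its 2 lowest libraries were OVX, but the groups overlapped (log2 fold change -0.22, SE 0.15, 95% limits -0.58 to 0.14).

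Among structural beta subunits, Psmb3 had the highest fold change of the core with all 6 libraries. It stood at 503, 476 and 401 scaled TPM across sham libraries and at 487, 483 and 637 in OVX (log2 fold change 0.21, SE 0.17, adjusted p = 0.781 by limma). Only OVX replicate 3 lay above the sham range. The fold change was 0.08 without OVX replicate 3, where Psma1 (0.12), Psmb4 (0.12) and Psmb5 (0.10) lay higher, and 0.12 without sham replicate 3. Psmb1 and Psmb2 had fold changes of 0.02 and 0.06, and Psmb4 of -0.11.

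The immunoproteasome was represented by Psmb10, which takes the place of Psmb7 in the immunoproteasome. It stood at 10.9, 11.6 and 13.5 scaled TPM across sham libraries and at 15.9, 8.43 and 13.3 in OVX. The highest and the lowest of the 6 values were both OVX libraries, and the log2 fold change was 0.02 (SE 0.24, 95% limits -0.53 to 0.57) and -0.14 on the TPM as deposited. The ratio of Psmb10 to Psmb7 within a library, which no scaling changes, was 0.152, 0.182 and 0.188 in sham and 0.273, 0.122 and 0.257 in OVX. The ratio was higher than in any sham library in OVX replicates 1 and 3 and lower than in any in OVX replicate 2. With 3 libraries against 3, an exact permutation test cannot go below p = 0.1. Psmb10 (chromosome 8, 105935735 to 105938444, minus strand) had 2 of 7 annotated transcripts listed. A short transcript with a retained intron gave 6.45, 6.20 and 9.73 scaled TPM across sham libraries and 9.67, 4.58 and 11.1 in OVX. The coding transcript gave 4.48, 5.41 and 3.82 in sham and 6.19, 3.84 and 2.25 in OVX. Much of the Psmb10 value, and so of the ratio to Psmb7, therefore came from RNA that does not encode the subunit. In OVX replicate 3, where the ratio lay above sham, the coding transcript had the lowest of its 6 values. The ratio thus does not describe the coding RNA alone.

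**Figure D3:**
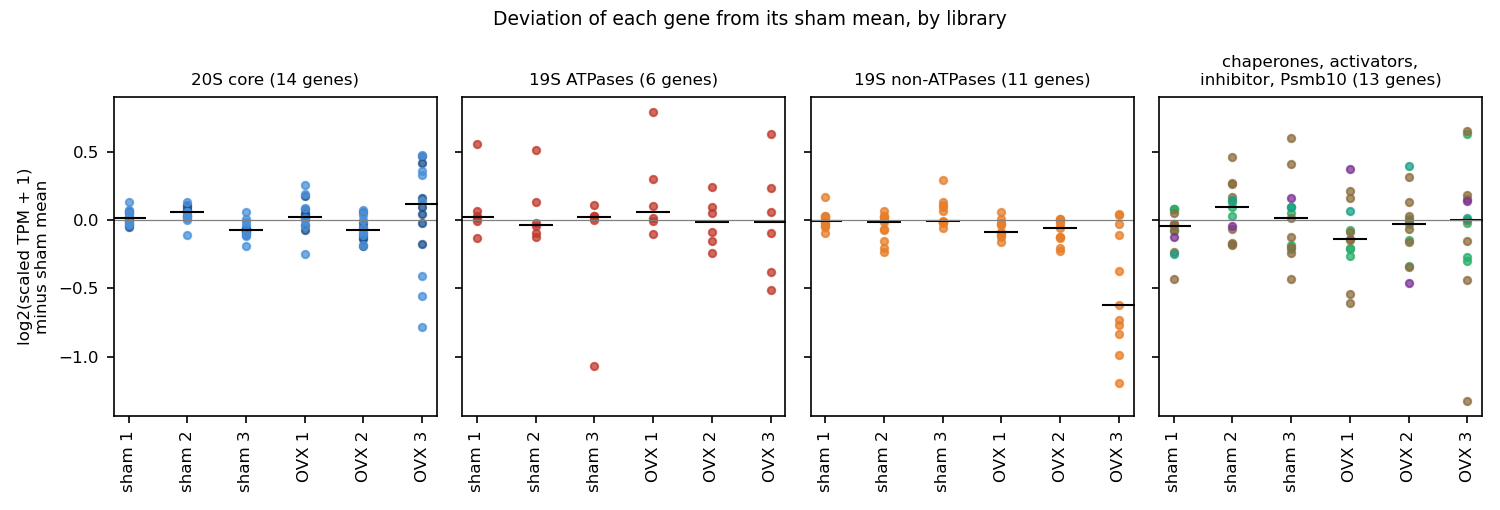
Log2(scaled TPM + 1) of each gene minus its mean over the sham libraries, for each of the 6 libraries, in 4 sets (20S core, 19S ATPases, 19S non-ATPases, and the chaperones, activators, inhibitor and Psmb10). Points are genes and black dashes medians. The lowest median is that of the non-ATPases in OVX replicate 3, and one ATPase, Psmc2, lies far below the rest in sham replicate 3.

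The 19S particle was described by its ATPases and its non-ATPases apart. The ATPases, which form the ring that pulls substrates into the core, summed to 521 ± 15.0 scaled TPM across sham libraries and 520.4 ± 41.2 in the OVX libraries (SD, n = 3), with 3 fold changes above 0 and 3 below. Psmc5, the most abundant, was at 130.0, 128 and 133 across sham libraries and at 132, 117 and 100.1 in OVX (log2 fold change -0.17, SE 0.14). OVX replicates 2 and 3 lay below the sham range and replicate 1 within it.

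Psmc2, another ATPase, had the highest fold change of the 19S particle, and it rested on 1 sham library. It stood at 66.0, 64.0 and 20.8 scaled TPM across sham libraries and at 78.0, 52.9 and 69.7 in OVX (log2 fold change 0.56, SE 0.43). Without sham replicate 3 the fold change was 0.02. In that library the other 5 ATPases lay within or above the range of the other sham libraries. Of 2 annotated Psmc2 transcripts, 1 was listed.

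The non-ATPases had mostly lower values in OVX, and most of the difference came from 1 library. Of the 11 subunits 9 had a log2 fold change below 0, where 49.1% of all genes lay above 0. The median of the 11 was -0.23, with a range of -0.48 (Psmd2) to 0.01 (Psmd12). Their sums were 929, 913 and 944 scaled TPM across sham libraries and 895, 887 and 713 in OVX. Each OVX sum lay below each sham sum, and with every scaling tried 9 to 11 subunits lay below 0, but OVX replicate 3 lay far below the other OVX libraries. Without it 10 of the 11 subunits lay below 0, and the median moved to -0.04 and the ratio of the sums from 0.896 to 0.960. None of the 11 was called, and the lowest adjusted p among the 17 subunits of the 19S particle was 0.711 (limma).

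For 3 of the 11 non-ATPases all OVX libraries lay below all sham libraries, as for 7.6% of all genes (the 3 were named after their values were seen). Psmd13, a lid subunit, was at 46.7, 45.3 and 51.1 scaled TPM across sham libraries and at 42.6, 41.1 and 26.2 in OVX (log2 fold change -0.40, SE 0.21, adjusted p = 0.711 by limma). Psmd3, a lid scaffold subunit, was at 33.0, 32.6 and 37.0 across sham libraries and at 31.6, 29.0 and 19.6 in OVX (-0.37, SE 0.20). Psmd8, a further lid subunit, was at 146, 150.5 and 147 across sham libraries and at 144, 135 and 114 in OVX (-0.18, SE 0.14). In each of them OVX replicates 1 and 2 lay just under the sham libraries and replicate 3 far under. Without OVX replicate 3 the log2 fold changes were -0.18 (Psmd13), -0.17 (Psmd3) and -0.08 (Psmd8).

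For Psmd2 and Psmd11 only OVX replicate 3 was low. Psmd2, the large base subunit that receives ubiquitin shuttles, was at 25.1, 23.1 and 33.1 scaled TPM across sham libraries and at 24.5, 24.4 and 11.1 in OVX. Psmd11, a lid subunit, was at 128, 127 and 126 across sham libraries and at 128, 126 and 63.7 in OVX. In both, OVX replicates 1 and 2 lay within or close to the sham range, and replicate 3 far below it. Psmd7, the most abundant non-ATPase and the partner of the deubiquitinase Psmd14, was at 154, 154 and 146 across sham libraries and at 142, 152 and 140.5 in OVX (-0.07, SE 0.12), with overlap. Psmd14 itself had a log2 fold change of -0.09 (SE 0.12).

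The balance of cap to core can be read within a library, where no scaling enters. The 19S sum was 0.349, 0.336 and 0.370 of the 20S sum in sham and 0.345, 0.355 and 0.260 in OVX. OVX replicates 1 and 2 lay within the sham range, and only OVX replicate 3 lay below it.

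Of the 4 activators, 3 had fold changes below 0. Psme1 and Psme2, which together form the interferon-inducible PA28 ring, had fold changes of opposite sign. Psme1 was at 41.7, 43.2 and 33.9 scaled TPM across sham libraries and at 33.8, 31.0 and 32.6 in OVX (log2 fold change -0.27, SE 0.15, adjusted p = 0.727 by limma; named after its values were seen). The OVX libraries lay below the sham libraries, but OVX replicate 1 and sham replicate 3 nearly touched, and 1 of 13 annotated transcripts was listed. Psme2 was the most abundant activator, at 95.4, 79.8 and 96.2 across sham libraries and at 78.0, 81.5 and 140.3 in OVX. Its log2 fold change was 0.09 (SE 0.24), became -0.17 without OVX replicate 3 and was -0.07 on the TPM as deposited. Psme3, the nuclear activator, had a log2 fold change of -0.20 (SE 0.15). Psme4, a large activator linked to histone breakdown, was the scarcest gene of all subunits and activators tested, at 3.09 to 3.95 over the 6 libraries.

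Psmf1, the inhibitor of the core, was at 7.09, 9.64 and 9.25 scaled TPM across sham libraries and at 9.04, 11.6 and 8.72 in OVX. The groups overlapped (log2 fold change 0.16, SE 0.19), and the fold change was 0.03 without sham replicate 1 and 0.04 without OVX replicate 2.

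Among the 7 assembly chaperones, 5 had fold changes below 0 and 2 above. Psmd5, which holds an ATPase module of the 19S base until assembly proceeds, had the lowest fold change of all proteasome genes. It stood at 17.5, 18.2 and 27.9 scaled TPM across sham libraries and at 13.9, 16.1 and 7.66 in OVX. All OVX values lay below all sham values, with sham replicate 3 far above the others and OVX replicate 3 far below. The log2 fold change was -0.74 (SE 0.30, 95% limits -1.44 to -0.04), with an adjusted p of 0.701 (limma). It was -0.44 without OVX replicate 3 and -0.53 without sham replicate 3. Psmd5 (chromosome 2, 34849734 to 34874968, minus strand) had 3 of 5 annotated transcripts listed. Its long coding transcript, of 4397 nt, was at 10.4, 11.3 and 14.5 across sham libraries and at 10.9, 12.4 and 5.83 in OVX, where the groups overlapped. Its short coding transcript, of 555 nt, was at 6.44, 5.76 and 12.5 across sham libraries and at 2.96, 3.52 and 1.83 in OVX, where they did not. With the most abundant transcript alone the log2 fold change of Psmd5 was -0.34.

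Psmg4, part of a chaperone pair that builds the alpha ring, was the most abundant chaperone, at 91.1, 116 and 83.7 scaled TPM across sham libraries and at 108, 95.4 and 152 in OVX (log2 fold change 0.27, SE 0.21). Only OVX replicate 3 exceeded the sham range, and without it the fold change was 0.08. Psmg1 and Psmg2, which form the other pair, had fold changes of -0.02 and 0.06, Psmg3, the partner of Psmg4, of -0.09, and Psmd9 and Psmd10 of -0.16 and -0.05.

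Psmc3ip had the highest fold change under the name rule, although its product is no part of the proteasome. It stood at 2.73, 3.95 and 3.91 scaled TPM across sham libraries and at 7.35, 6.35 and 5.60 in OVX, so that every OVX library exceeded every sham library. The log2 fold change was 0.72 (SE 0.19, 95% limits 0.28 to 1.16), with an adjusted p of 0.552 (limma), and it was 0.81 without OVX replicate 3. Most of its value came from the coding transcript, at 2.73, 3.95 and 3.51 across sham libraries and at 6.18, 4.96 and 5.60 in OVX. Psmc3ip (chromosome 11, 101091823 to 101095436, minus strand) shares exon sequence with Mlx on the opposite strand. The library kit kept the strand, but whether the counting step used it was not stated. This applies equally to Psmd13 with Sirt3, Psme1 with Emc9 and Psmb7 with Nek6. In all, 12 of the 46 genes shared exon sequence with another gene.

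**Figure D4:**
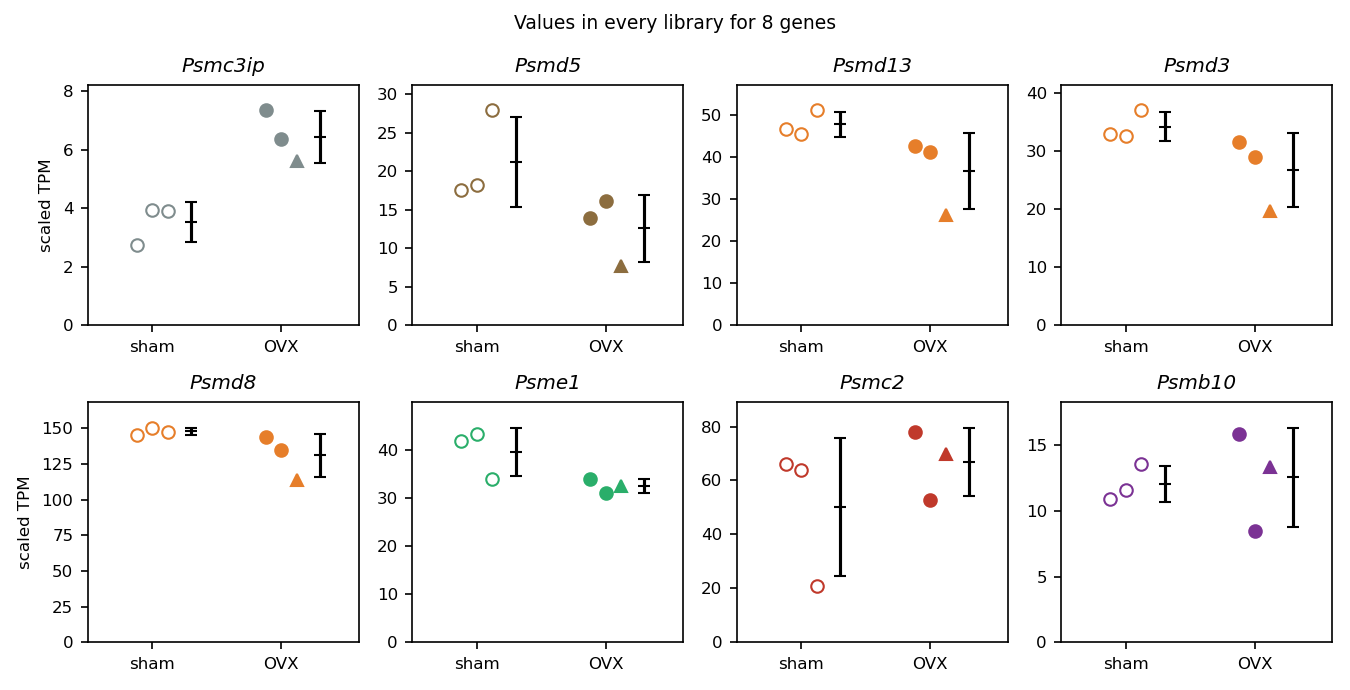
Scaled TPM in every library for 8 genes, with axes from 0. Open symbols are sham and filled symbols OVX replicates 1 to 3 from left to right, with a triangle for OVX replicate 3; bars show the mean and SD of 3 libraries. Psmc3ip lies higher in all OVX libraries, Psmd5, Psmd13, Psmd3, Psmd8 and Psme1 lie lower, Psmc2 has 1 low sham library, and Psmb10 overlaps.

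OVX replicate 3 spread the proteasome genes more widely than the other libraries. The SD of their deviations from the sham mean was 0.49 on the log2 scale in that library, against 0.26 and 0.19 in OVX replicates 1 and 2. For all genes these SDs were 0.70 in OVX replicate 3 and 0.38 in each of the others. Of the 45 genes, 18 lay below the sham range (40%, against 38.6% of all genes) and 15 above it (33.3%, against 38.3%) in OVX replicate 3. In OVX replicate 1, 15 lay below (33.3%, against 26.7%) and 10 above (22.2%, against 26.7%). In OVX replicate 2, 20 lay below (44.4%, against 27.0% of all genes) and 2 above (4.44%, against 26.5%).

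The deviations in OVX replicate 3 also went with transcript length. Of 10 genes whose main listed transcript was shorter than 1000 nt, 8 lay above the sham mean there, with a median deviation of 0.34. Of 26 genes from 1000 to under 2000 nt, 10 lay above (median -0.06), and of 9 genes of 2000 nt or more, 3 did (median -0.30). Short transcripts such as Psmg4, Psmb3, Psme2 and Psma7 were high in this library and long ones such as Psmd2 and Psmd5 low. Others went the other way. Psmb5 (899 nt) and Psmg3 (883 nt) were short and lay below the sham mean. Psma2 (2911 nt), Psmd9 (2597 nt) and Psmc6 (2234 nt) were long and lay above it. Pearson's r of the deviation with log10 length over the 45 genes was -0.41 in OVX replicate 3, -0.31 in replicate 1 and -0.003 in replicate 2. Over 8160 genes with a length, r was -0.04 in OVX replicate 3. With GC content, r in that library was -0.19 over the 45 genes and -0.29 over all. The genes share one library each, so the values are a description. Over all genes, 935 of 1282 short ones lay above the sham mean in OVX replicate 3 (median 0.38), 821 of 2307 of middle length (median -0.24) and 2324 of 4571 long ones (median 0.01). The part of length in the values of OVX replicate 3 was not tested.

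**Figure D5:**
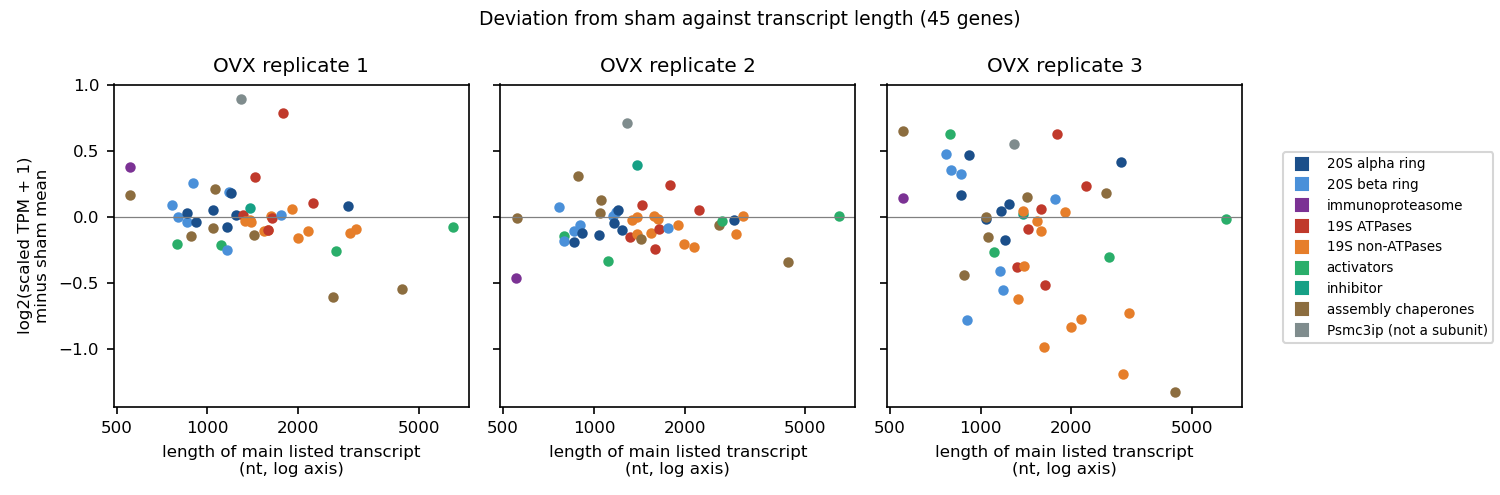
Deviation from the sham mean, as log2(scaled TPM + 1), against the length of the main listed transcript in nt on a log axis, for the 45 genes in each OVX library. In OVX replicate 3 the shortest transcripts lie mostly above 0 and many longer ones below; in replicate 2 most points lie within 0.3 of 0.

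Coding transcripts made up most of the proteasome RNA in every library. Of 93 listed transcripts, 66 were coding and held between 93.9% and 95.1% of the summed TPM of these genes in every library. The 19 transcripts with a retained intron held between 3.56% and 3.91%. The remaining 8 noncoding transcripts held 1.33%, 1.51% and 1.95% across sham libraries and 1.78%, 1.95% and 2.46% across OVX libraries, which overlapped. Single transcripts varied more. A Psma3 transcript annotated for nonsense-mediated decay was at 61.8, 71.2 and 92.5 scaled TPM across sham libraries and at 86.6, 92.8 and 139 in OVX. The Psmb4 coding transcript was at 178, 185 and 172 across sham libraries and at 172, 168 and 155 in OVX. An intron-retaining Psmb4 transcript was at 53.5, 36.9 and 42.2 across sham libraries and at 86.2, 62.2 and 0 in OVX, so the Psmb4 sum depended on that transcript. A 0 of this kind can be a failed estimate.

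Around the proteasome, 83 genes in 5 lists were tested, and 0 were called by limma, where 0.0122% of all genes were called higher and 0% lower. An unadjusted p under 0.05 (limma) was found for 3 of the 83, against 7% of all genes. Among 14 tested factors that bind the proteasome or assist its assembly, 9 lay above 0 and 5 below, with no groups apart (all genes 7.54% wholly higher, 7.6% wholly lower). One of them, Pomp, the chaperone that completes the core, was at 184, 210.3 and 143 scaled TPM across sham libraries and at 166, 166 and 359 in OVX (0.28, SE 0.32). Only OVX replicate 3 lay above the sham range. Of 9 shuttles and p97 factors, 3 lay above 0 and 6 below.

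The list around NRF1 and NRF2 had 4 of 16 fold changes above 0, with a median of -0.12. The OVX libraries lay wholly above the sham libraries for 1 gene, Slc7a11 (0.26, SE 0.13), where 7.54% of all genes did. They lay wholly below for 1, Nqo1 (-0.50, SE 0.26), where 7.6% of all genes did. Nfe2l1 and Nfe2l2 were among the 4 above 0. Nfe2l1, which encodes NRF1, was at 27.5, 39.6 and 36.1 scaled TPM across sham libraries and at 38.0, 46.3 and 63.8 in OVX (log2 fold change 0.49, SE 0.23, adjusted p = 0.708 by limma). OVX replicate 1 lay within the sham range and the other OVX libraries above it. Nfe2l2, which encodes NRF2, had a fold change of 0.19 (SE 0.16). Of 27 ubiquitin-activating and conjugating enzymes, 14 lay above 0 and 13 below. For 5 of them the OVX libraries lay wholly above the sham libraries, where 7.54% of all genes did, and for 1 wholly below (7.6% of all genes). Ube2c, the conjugating enzyme of the anaphase-promoting complex, was at 14.4, 10.6 and 9.72 across sham libraries and at 16.2, 16.2 and 20.7 in OVX (0.58, SE 0.19, adjusted p = 0.671 by limma). All its OVX libraries exceeded all its sham libraries.

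Genes of class I antigen presentation, the route that proteasome products feed, and interferon regulators had mostly lower values in OVX. Of 17 tested, 13 had fold changes below 0, where 49.1% of all genes lay above 0, and the median of the 17 was -0.32. For 6 the OVX libraries lay wholly below the sham libraries (35.3%, against 7.6% of all genes). None was called. Ifngr2, a chain of the interferon gamma receptor, was at 16.2, 15.4 and 19.2 scaled TPM across sham libraries and at 10.2, 10.3 and 11.9 in OVX (-0.60, SE 0.15, adjusted p = 0.529 by limma). Gbp2, an interferon-induced GTPase, was at 3.16, 3.59 and 2.70 across sham libraries and at 1.82, 2.08 and 2.13 in OVX (-0.46, SE 0.17, adjusted p = 0.688 by limma). Both had groups that did not overlap. Of the 4 genes with fold changes above 0, Irgm1 had the highest (0.64, SE 0.35). It stood at 2.34, 1.78 and 0.544 across sham libraries and at 2.84, 1.72 and 4.18 in OVX, with overlap.

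Of the class I chains, H2-K1, a heavy chain, was at 249, 253 and 257 scaled TPM across sham libraries and at 220.2, 209.8 and 138 in OVX (-0.45, SE 0.20, adjusted p = 0.704 by limma; named after its values were seen). H2-D1, another heavy chain, was at 421, 359 and 443 across sham libraries and at 441, 407 and 190.3 in OVX (-0.32, SE 0.32), and only OVX replicate 3 lay below the sham range. The light chain B2m was at 799, 759.9 and 676 across sham libraries and at 798, 733 and 753 in OVX (0.03, SE 0.13), so the groups overlapped. Tap1, which carries peptides into the endoplasmic reticulum, was under the tested level, at 0.668, 0.921 and 1.67 across sham libraries and at 0.739, 0 and 0 in OVX. Irf1, a transcription factor for immunoproteasome genes, was at 10.1, 7.73 and 10.6 across sham libraries and at 10.4, 8.20 and 4.32 in OVX (-0.34, SE 0.29), with overlap.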

How the data were processed

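The authors deposited TPM per transcript for 3 OVX and 3 sham libraries. Groups came from the condition given for each sample and replicate numbers from sample titles, and 0 columns lacked a sample. The submitters' processing notes name HISAT2 2.0.5 and featureCounts 1.5.0-p3, and the methods name mm10; the step that gave TPM was not given in the sources used here. Comparison columns by the authors (mean level, fold change, adjusted p) were not used.

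Per gene, TPM were summed over the transcripts in the table, which can miss some of its RNA; 6 of the 46 genes had every annotated transcript listed. Sums were scaled by an unweighted trimmed mean of M values (trimming 30% of M and 5% of A values on either side; factors 1.048, 0.999 and 1.139 for sham, 1.002, 1.007 and 0.8317 for OVX replicates 1 to 3). Genes whose scaled TPM averaged 1 or more (8185 of 11815) were tested by limma 3.58.1 (R 4.3.3) on log2(scaled TPM + 1) with trend and Benjamini-Hochberg adjustment; this scale understates changes of low genes. TPM keep no counts, so no detection limits are given. The code was tested on simulated data.

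Members, lists and tests were chosen with earlier results of these data known. Values in every library are given for immunoproteasome and catalytic subunits, the most abundant gene of each role, genes with an unadjusted p under 0.05 and the highest and lowest fold changes; of other lists, genes with an unadjusted p under 0.05, at most 4 a list, and Nfe2l1, Nfe2l2, Pomp, Tap1, B2m and Irf1. Psmd2, Psmd3, Psmd8, Psmd11, Psmd13, Psme1, Psmc2, Psma7, H2-K1, Irgm1, Slc7a11 and Nqo1, and single transcripts, were added after values were seen. Alternatives were other scalings, filters, pseudocounts, spread estimates and transcript sums, a replicate block, and each library left out. One further short gene list is not reported here.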

Additional observations from a re-analysis of the deposited data

How the results depend on the processing

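None of the genes under the name rule was called under any of 18 alternatives, where at most 29 of all genes were called (library weights). The lowest adjusted p (limma) among them lay between 0.115 (Psmc3ip, with library weights) and 0.976 (without sham replicate 3). On the TPM as deposited, 13 genes lay wholly below sham (all genes 13.1%), 5 were above 0 (all genes 30.1%), the median was -0.19 (all genes -0.15), and the ratios were 0.918 (20S) and 0.837 (19S). With equal listed totals these were 10 lower (11.3%), 10 above 0 (40.03%) and a median of -0.10 (-0.07). Unadjusted p under 0.05 (limma) held for 1 gene with no filter (all genes 7.58%) and 1 with a minimum mean of 5 (6.72%). That minimum removed Psmc3ip and so left 0 wholly higher (all genes 8.22%). Library weights left 12 above 0 (all genes 49.1%). The most abundant transcript gave a median of -0.081, and transcripts above 0 in all libraries 8 wholly lower (7.77%).

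Among the genes followed singly through the settings, reversed log2 fold changes were those of Psmb10 (-0.14 as deposited, -0.053 equal totals, -0.21 weights), Psmb6 (-0.11, -0.019 and -0.12 likewise), Psme2 (-0.074 as deposited, -0.14 weights) and Psma3 (-0.17 as deposited, -0.003 median-ratio, -0.075 equal totals, -0.11 weights, -0.24 most abundant transcript, -0.011 transcripts above 0 in all libraries). Other genes also changed sign as deposited, among them Psma7 (-0.07), Psmb2 (-0.11) and Psmc4 (-0.07). The causes were not tested. Leaving out 1 library gave 1 to 5 genes wholly higher (all genes 10.5% to 14.1%) and 7 to 10 wholly lower (10.6% to 14.5%), as fewer libraries overlap less. Of the members, 1 to 2 then had an unadjusted p under 0.05 by limma (all genes 3.94% to 9.41%). Fold changes then ranged from -0.16 to 0.26 (Psmb10), -0.42 to 0.10 (Psmb5), -0.089 to 0.18 (Psmb6), -0.077 to 0.10 (Psma3) and -0.17 to 0.25 (Psme2). With a replicate block, 1 gene had an unadjusted p under 0.05 by limma (all genes 4.97%) and 0 were called, as were 0 of all genes. Same-numbered libraries did not deviate together (r = -0.06, -0.13 and -0.25), and for differently numbered ones r ran from -0.15 to 0.20. Deviations from the mean of only 3 libraries depend on one another, so these r cannot decide whether the numbers pair. With 3 libraries a group, the median SE of 0.16 limits which changes could be called.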
